A study of Drosophila mojavensis with 172 samples.

Results

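Late pupae of Drosophila mojavensis from Punta Prieta, Baja California, were compared after larval life on organ pipe cactus medium and on agria cactus medium. They were chosen from the sample titles by population (Punta Prieta), stage (late pupa) and diet, which gave 8 of the 172 arrays in the series. The Punta Prieta groups compared were 4 arrays of late pupae on organ pipe, 4 arrays of late pupae on agria, 4 arrays of early pupae on organ pipe and 3 arrays of early pupae on agria. Las Bocas, a mainland population from Sonora, supplied 1 late pupal array on organ pipe, 2 late pupal arrays on agria, and 3 and 4 early pupal arrays on organ pipe and agria. It also supplied 4 and 5 arrays of third-instar larvae on organ pipe and agria, and 4 arrays of 0-day females on each diet. Third-instar Punta Prieta larvae, 1 array on organ pipe and 5 on agria, served for comparison. Further Las Bocas stages gave means for a check of stage. All flies were wild type, grew in bottle cultures at moderate larval density, and took their diet as larvae. The labels give no sex, no age in hours and no number of pupae behind an array, so a difference in sex or age between arrays cannot be told apart from diet. Whether replicates came from separate cultures is not stated, and p-values measure the spread between these arrays, which may be technical. Each array gave 1 log2 signal for each of 14528 transcripts, and no pair of late pupal arrays was identical, with a highest correlation of 0.959. The transcripts are known here by ID only.

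A fly pupa does not feed. Larval tissues are broken down, and adult legs, wings, eyes, muscle and cuticle are built from imaginal cells under pulses of ecdysone, until a pharate adult lies complete within the puparium. Transcript levels change steeply through this period, so pupae collected under 1 stage name can differ widely if they are not of the same age. D. mojavensis breeds in rotting cactus, and the populations of the mainland and of Baja California differ in their main host, organ pipe in Sonora and agria in Baja California.

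The stage of every array was checked first, against the mean of each stage in Las Bocas, which shares no array with Punta Prieta. The 4 organ pipe arrays correlated best with Las Bocas late pupae, at 0.899, 0.941, 0.855 and 0.943 over all transcripts for replicates 1 to 4. The 4 agria arrays did not share 1 best stage. Agria replicates 1 and 4 correlated best with late pupae, at 0.834 and 0.845. The array labelled late pupae on agria, replicate 2, correlated best with early pupae, at 0.948 against 0.748 with late pupae. The array labelled late pupae on agria, replicate 3, correlated best with third-instar larvae, at 0.903, with 0.852 for early and 0.622 for late pupae. A best match can miss the labelled stage. All 5 third-instar Punta Prieta arrays on agria correlated best with second-instar larvae, and the 1 on organ pipe with third-instar larvae. Every early Punta Prieta array correlated best with early pupae. The results below stand on an agria group whose arrays did not match 1 stage best. Whether age or labelling lies behind this was not tested.

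**Figure D1:**
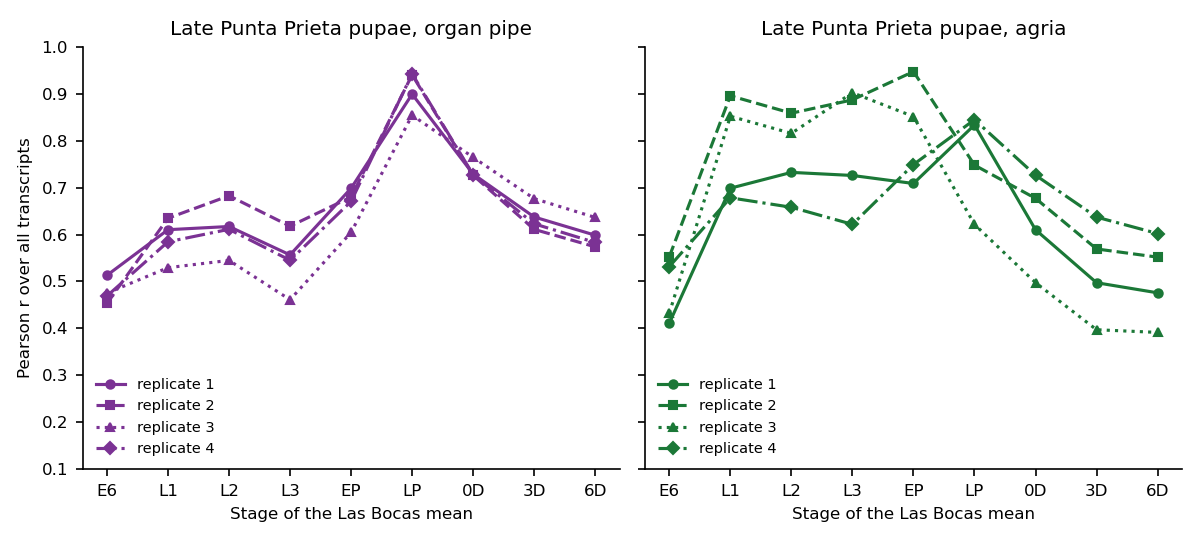
Pearson correlation of each late Punta Prieta array with the Las Bocas mean of 9 stages (6-hour eggs E6, larval instars L1 to L3, early pupae EP, late pupae LP, and females of 0, 3 and 6 days), over 14528 transcripts. The left panel holds the 4 organ pipe arrays, all highest at late pupae, and the right panel the 4 agria arrays, of which replicate 2 is highest at early pupae and replicate 3 at third-instar larvae.

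A pupal progress score placed each array between the Las Bocas early pupal mean (0) and late pupal mean (1), by least squares over the 4235 transcripts whose means at these stages lie 1 log2 unit or more apart. Late pupae on organ pipe scored 0.98, 1.02, 1.11 and 1.12, and those on agria 0.723, 0.108, 0.0731 and 0.743, for replicates 1 to 4. Every organ pipe array lay above every agria array, and agria replicates 2 and 3 lay just above and inside the range of the early Punta Prieta arrays, -0.131 to 0.0963. The mean was 1.06 ± 0.066 on organ pipe and 0.412 ± 0.371 on agria (SD, n = 4 each), a difference of 0.646 (two-sided exact permutation test, p = 0.0286). This p is the smallest that 4 against 4 arrays can give, and the Benjamini-Hochberg value over the 4 scores made was 0.114. Leaving out any 1 organ pipe array moved the exact permutation p to 0.0857, with organ pipe still higher throughout. Without agria replicates 2 and 3 the difference was 0.324, with an exact permutation p of 0.0667, the smallest that 4 against 2 arrays allow.

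Early pupae showed no such gap in progress. They averaged -0.00621 ± 0.099 on organ pipe (SD, n = 4) and 0.0117 ± 0.064 on agria (SD, n = 3), a difference of -0.0179 (exact permutation p = 0.829). The diet difference in progress was larger in late than in early pupae by 0.664 (exact permutation of diet labels within stage, p = 0.0118), a test added after the data were examined. The permutation shuffles diet labels at both stages at once. A gap in late pupae alone can thus give a small p, and this p does not test whether the stages differ. Without agria replicates 2 and 3 the difference between stages was 0.342 (exact permutation p = 0.0324, with the same limit). In Las Bocas the single late array on organ pipe scored 1.07 and the 2 on agria 1.02 and 0.843. These 3 arrays set the late end of the score, so they give no separate measure of a diet difference in progress.

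Late pupae also varied in a second direction that diet did not order. The 2 Las Bocas agria late arrays differed by at least 1 log2 unit at 4444 transcripts, and a second score, added after the data were examined, placed each array between them, at 0 and 1. Late Punta Prieta arrays on organ pipe scored 0.836, 0.104, 0.967 and 0.591, and those on agria -0.0261, 0.634, 0.413 and 1.03. Both diets had arrays near each end, and the difference of 0.111 was smaller than the spread within either diet (exact permutation p = 0.714). Agria replicate 4 and organ pipe replicate 1 correlated at 0.959 and agria replicate 1 and organ pipe replicate 2 at 0.892, while agria replicates 1 and 4, alike in progress, correlated at 0.561. Pairs within organ pipe ran from 0.741 to 0.943 and pairs within agria from 0.561 to 0.87.

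**Figure D2:**
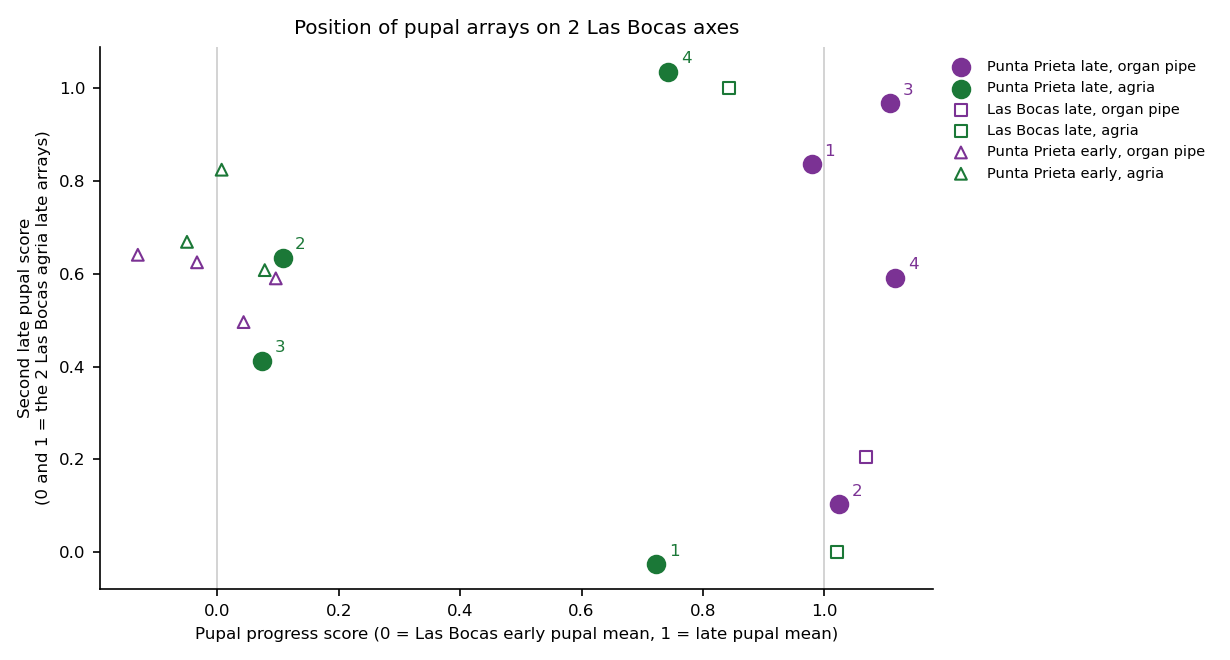
Pupal progress score (horizontal axis) against the second late pupal score (vertical axis) of single arrays, both without units and both built from Las Bocas arrays. Filled circles are late Punta Prieta pupae with their replicate numbers, open squares late Las Bocas pupae and open triangles early Punta Prieta pupae. Agria replicates 2 and 3, at 0.108 and 0.0731 on the horizontal axis, lie at the side of the early pupae, and the 4 organ pipe arrays lie between 0.98 and 1.12 but spread from 0.104 to 0.967 upward.

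Stage lists made from Las Bocas arrays alone were used to describe the same arrays in log2 signal. The early pupal, late pupal and pharate adult lists lie within the 4235 transcripts of the progress score. Their direction therefore gives no support separate from that score. The early pupal list holds 238 transcripts at least 2 log2 units higher in early than in late Las Bocas pupae. Its mean log2 signal was 10.05, 10.32, 9.91 and 9.77 in the late organ pipe arrays and 10.95, 12.68, 12.12 and 10.71 in the late agria arrays. Agria replicate 2 was within the range of early Punta Prieta pupae, 12.64 to 12.89, and every agria array lay above every organ pipe array. The median diet difference over the list was -1.71, against 0.029 over all transcripts, and -0.90 without agria replicates 2 and 3. In whole pupae, fewer cells of a type and less RNA per cell cannot be told apart. All 4 organ pipe signals lay below all 4 agria signals at 122 of the 238 (51.3%), against 9.29% of all transcripts, and above them at 0, against 3.21%.

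Lists of transcripts higher in late than in early pupae ran the other way. The pharate adult list holds 279 transcripts that are at least 2 log2 units higher in late than in early pupae and stay on at eclosion. It averaged 13.47, 13.33, 13.93 and 13.54 in the late organ pipe arrays and 12.60, 11.84, 11.23 and 13.45 in the late agria arrays. Here the groups overlapped, because agria replicate 4 stood at the organ pipe level. Agria replicates 2 and 3 stood above the early pupae, which reached at most 10.94. Third-instar Punta Prieta larvae had 11.32 to 12.55 on this list, so a level above early pupae does not by itself mark a later stage. The median diet difference was 1.29, or 0.47 without agria replicates 2 and 3, and 46 of 279 (16.5%) had all organ pipe signals above all agria signals, against 3.21% of all transcripts. The late pupal list of 64 transcripts, which fall again by eclosion, averaged 12.65, 13.14, 12.67 and 12.88 on organ pipe and 12.53, 11.32, 11.13 and 12.21 on agria, without overlap, and its median diet difference was 1.02, or 0.38 without those arrays. In it 14 of 64 (21.9%) lay above agria without overlap. For neither list was any transcript lower in all organ pipe than in all agria arrays, against 9.29% of all transcripts.

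Transcripts of the stages on either side were also followed. The larval list of 81 transcripts, highest in third-instar Las Bocas larvae, averaged 10.01 ± 0.48 on organ pipe and 10.82 ± 0.67 on agria (SD, n = 4 each), and the ranges overlapped. Its median diet difference was -0.85, or -0.56 without agria replicates 2 and 3, and 14 of 81 (17.3%) lay below agria without overlap, against 9.29% of all transcripts. Agria replicate 3 had the highest larval mean of the 8, at 11.38, close to early Punta Prieta pupae, which reached 11.26, and far below third-instar Punta Prieta larvae, at 14.29 to 14.65. Agria replicate 4 stood among the organ pipe arrays, at 9.87. The eclosion list of 149 transcripts, at least 2 log2 units higher in 0-day females than in pupae, averaged 10.78 ± 0.39 on organ pipe and 10.61 ± 0.058 on agria. Organ pipe replicate 3 stood above the rest at 11.34. On a score from the late pupal mean (0) to the 0-day female mean (1), the groups averaged 0.0593 on organ pipe and 0.184 on agria (exact permutation p = 0.143). Early Punta Prieta pupae averaged 0.277 on organ pipe and 0.318 on agria on this score, and late agria replicates 2 and 3 had 0.308 and 0.217. A higher value on it thus need not mean an array nearer to eclosion.

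**Figure D3:**
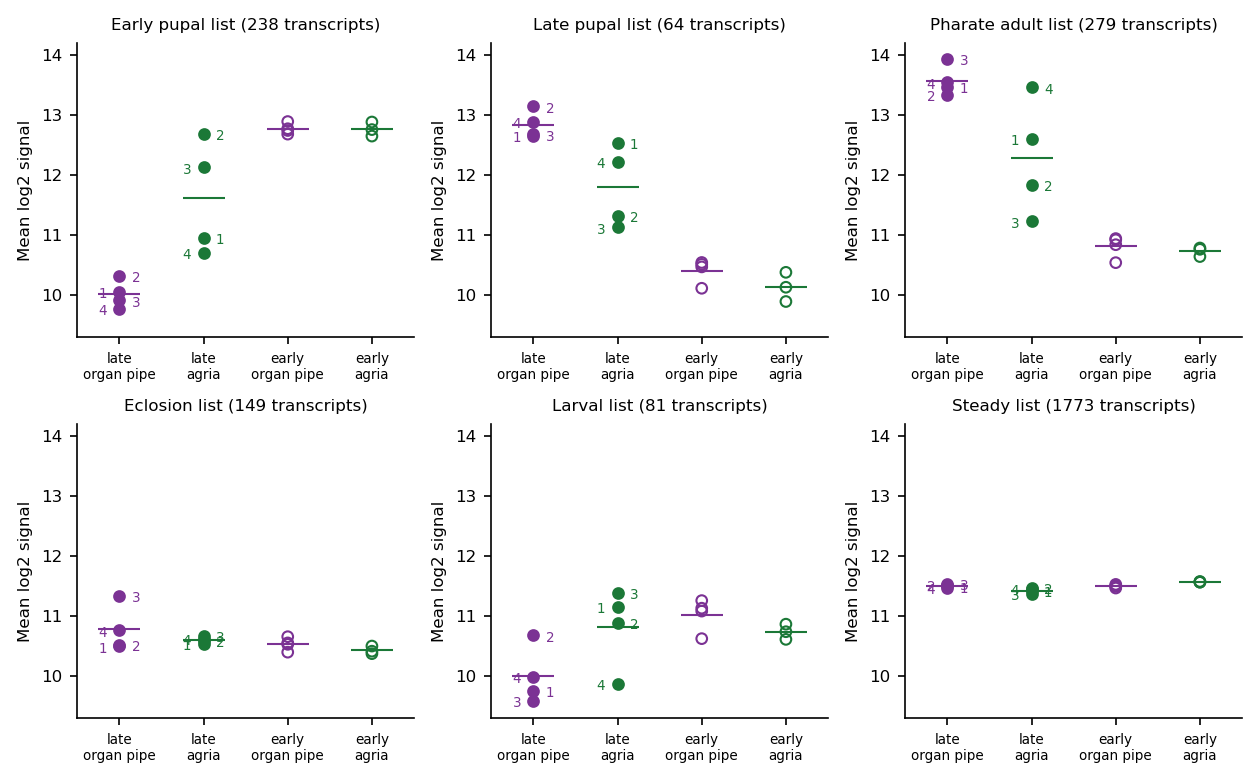
Mean log2 signal of 6 stage lists in single arrays of Punta Prieta pupae (points) with the group mean (line). Filled points are late pupae with replicate numbers, open points early pupae. In the early pupal list the late agria arrays run from 10.71 to 12.68, all above the late organ pipe arrays, and in the steady list all groups lie close together.

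Across single transcripts, no diet difference in late Punta Prieta pupae passed the threshold of 0.05 after adjustment. limma, fitted to the 8 arrays, called 0 of 14528 transcripts (0%) at an adjusted p under 0.05, and the lowest adjusted p was 0.077. At an unadjusted p under 0.05 there were 3929, with 1426 higher (9.82%) and 2503 lower (17.2%) on organ pipe. With 1 array left out this number ran from 2166, without agria replicate 3, to 6397, without agria replicate 4, and it was 2442 without organ pipe replicate 3 and 2478 without agria replicate 2. All 4 organ pipe signals lay above all 4 agria signals at 467 transcripts and below them at 1349. The median SD within a group was 0.44 log2 units on organ pipe and 0.659 on agria, and the agria SD was the larger one for 10885 transcripts. The count rested on agria replicate 4. Without it limma called 4366, with 1870 higher and 2496 lower on organ pipe. With agria replicates 2 and 3 left out it again called 0, and 717 had an unadjusted p under 0.05. With agria replicates 1 and 4 left out, a setting added after the data were examined, it called 4840. With the spread taken from all 25 pupal arrays 4183 were called, and with that of all 172 arrays 7725. Diet and progress cannot be told apart in any of these counts.

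The transcripts with the largest limma t in each direction also differed between early and late pupae of Las Bocas. FBtr0164930 had log2 signals of 11.56, 11.61, 10.83 and 11.17 on organ pipe and 13.37, 13.86, 14.63 and 12.97 on agria, a difference of -2.41 (SE 0.40, limma adjusted p = 0.077). Its groups did not overlap, and the agria arrays lay towards the early pupal level, 14.30 in Las Bocas against 12.14 in late pupae. FBtr0161188 had 9.18, 9.21, 8.56 and 9.03 on organ pipe and 11.08, 11.96, 11.84 and 10.22 on agria, a difference of -2.28 (SE 0.41, limma adjusted p = 0.077). Agria replicate 4 was again the agria array nearest to organ pipe.

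In the other direction, FBtr0171596 had 11.79, 11.63, 13.23 and 12.27 on organ pipe and 10.24, 9.53, 8.90 and 10.73 on agria, a difference of 2.38 (SE 0.48, limma adjusted p = 0.077). Las Bocas early and late pupae had 9.37 and 12.00, so the agria arrays lay between these stages or below the early mean. The late Las Bocas arrays had 11.40 on organ pipe and 12.08 and 13.12 on agria, the opposite order. FBtr0161497 had 11.24, 12.46, 13.97 and 13.16 on organ pipe and 10.34, 10.36, 10.26 and 10.51 on agria, a difference of 2.34 (SE 0.50, limma adjusted p = 0.077). Here all 4 agria arrays, replicates 1 and 4 included, stood at the early pupal mean of Las Bocas, 10.29, against 11.85 in late pupae. That late mean joins 10.97 on organ pipe with 12.11 and 13.34 on agria, the opposite diet order. Early Punta Prieta pupae on agria averaged 10.92, above the late agria arrays. None of these 4 transcripts passed the threshold.

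**Figure D4:**
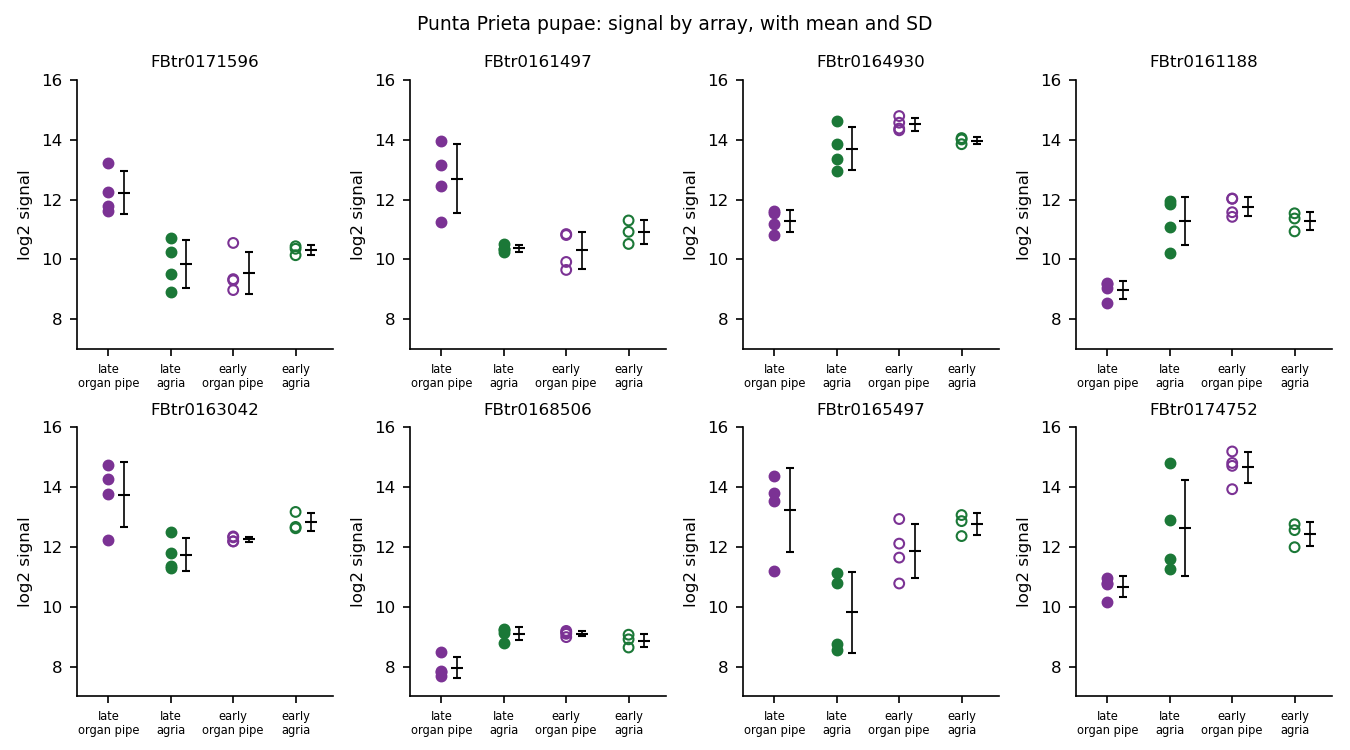
Log2 signal of 8 transcripts in single arrays of Punta Prieta pupae, with the mean and SD beside each group. Filled points are late and open points early pupae. In the upper row the late organ pipe and late agria arrays do not overlap, and the late agria means lie on the side of the early pupae.

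The diet difference ran along the early to late pupal change. Over 14528 transcripts, the difference of the organ pipe and agria means correlated with the Las Bocas change from early to late pupa at 0.748, with a slope of 0.654. This describes transcripts, which are not independent replicates. The 2 measures share no array, but the progress score was built on the same Las Bocas change. The slope, and the signs counted below over the 4235 transcripts of that score, therefore give no support separate from it. A line on the stage change took 55.9% of the variance of the diet differences and lowered their SD to 0.57 log2 units from 0.858 before it. With the second direction added, 66.6% was taken. Of the 4235 transcripts with a stage change of at least 1 log2 unit, 4044 (95.5%) had a diet difference of the same sign. Of the 1349 transcripts below agria without overlap, 917 were transcripts that drop by at least 1 log2 unit towards late pupae and 0 were transcripts that climb. Of the 467 above agria, 207 climb and 3 drop. Over all transcripts 16.9% drop and 12.3% climb by that much.

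Each agria array departed from the organ pipe mean in its own way. For agria replicates 2 and 3 the stage change took 68.1% and 50.2% of the variance of that departure, with slopes of 0.964 and 0.997, close to a whole step from early to late pupa. For replicates 1 and 4 it took 8.97% and 24.5%, with slopes of 0.322 and 0.331, and the second direction took 39.8% and 37.6%, with correlations of opposite sign (0.631 and -0.613). The 4 departures share the organ pipe mean. With all agria arrays 3651 transcripts (25.1%) had means at least 1 log2 unit apart. With replicates 1 and 4 as the agria group there were 963 (6.63%), 355 higher and 608 lower on organ pipe, and the slope on the stage change was 0.327.

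**Figure D5:**
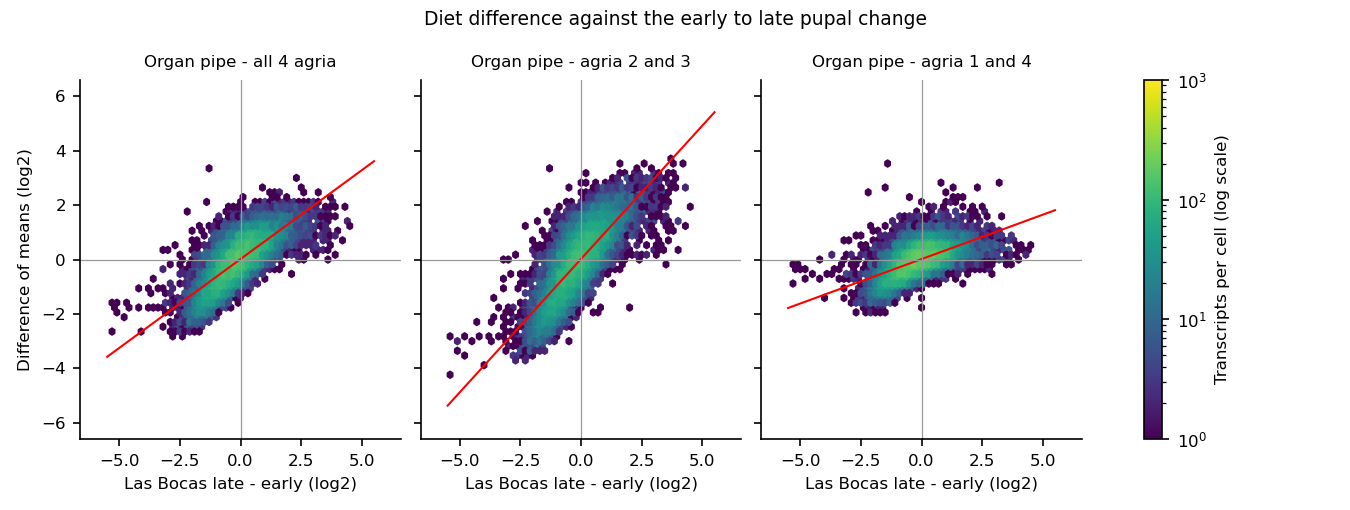
Difference of organ pipe and agria means (vertical axis, log2) against the Las Bocas change from early to late pupa (horizontal axis, log2) for 14528 transcripts, as counts per hexagon, with the fitted line. The slope is 0.654 with all 4 agria arrays, 0.98 with agria replicates 2 and 3 alone and 0.327 with agria replicates 1 and 4 alone.

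The diet difference was also fitted with the progress score as a covariate. By limma 0 transcripts were called (0%) and 27 had an unadjusted p under 0.05. That number was 935 without agria replicate 4, 219 without agria replicate 1, 85 without organ pipe replicate 1, and 15 to 51 without any other single array. The median size of the difference was 0.229, against 0.595 without the covariate. Diet and progress correlated at 0.813 over the 8 arrays, and the SE was larger by a median factor of 1.56, and the score was computed from the signals of the same arrays, so diet and progress cannot be told apart in this fit. The 2 transcripts with the largest positive t were FBtr0163357, at 1.80 (SE 0.61), and FBtr0170820, at 1.08 (SE 0.42), both with a limma adjusted p of 1. FBtr0163357 had 11.38, 11.29, 12.46 and 11.76 on organ pipe and 9.84, 10.79, 11.20 and 10.53 on agria, so its groups did not overlap. The 2 most negative were FBtr0168662, at -1.78 (SE 0.52), and FBtr0172410, at -1.60 (SE 0.46), neither past the threshold. Without the covariate both had the opposite sign. FBtr0168662 averaged 13.88 ± 0.54 on organ pipe and 12.38 ± 1.91 on agria, and FBtr0172410 averaged 12.43 ± 0.48 on organ pipe and 12.15 ± 1.05 on agria (SD, n = 4 each). In both, agria replicates 2 and 3 lay below every organ pipe array and agria replicates 1 and 4 within or above the organ pipe range.

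Transcripts with steady stage means were described as well. The steady list holds 1773 transcripts whose early pupal, late pupal and 0-day means in Las Bocas lie within 0.5 log2 units. Its median diet difference was 0.042, and 83 of its members had means at least 1 log2 unit apart. The groups did not overlap at 48 with organ pipe higher (2.71%) and 37 with organ pipe lower (2.09%), below the 3.21% and 9.29% of all transcripts. FBtr0168506 had 7.82, 8.50, 7.84 and 7.70 on organ pipe and 9.26, 9.22, 9.11 and 8.79 on agria, a difference of -1.13 (SE 0.31, limma adjusted p = 0.0809). FBtr0168205 had 13.19, 13.57, 14.61 and 14.29 on organ pipe and 12.30, 12.62, 12.28 and 13.09 on agria, a difference of 1.34 (SE 0.39, limma adjusted p = 0.0845). In both the groups did not overlap, and neither passed the threshold. FBtr0163042, with overlapping groups, differed by 2.01 (SE 0.52) and FBtr0171114 by -1.12 (SE 0.32), also short of it. Steady means can hide a wide spread, since the 3 late Las Bocas arrays ran from 11.00 to 14.47 for FBtr0163042 and from 12.69 to 14.22 for FBtr0168205.

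Of the 191 transcripts whose diet difference opposed a stage change of at least 1 log2 unit, FBtr0165497 had the largest limma t. Its log2 signals were 11.19, 13.54, 14.38 and 13.79 on organ pipe and 8.56, 11.13, 8.76 and 10.79 on agria, a difference of 3.42 (SE 0.76, limma adjusted p = 0.077). The groups did not overlap by a narrow margin. Early pupae of Punta Prieta had 12.11, 12.93, 11.64 and 10.78 on organ pipe and 13.06, 12.36 and 12.86 on agria, so the late agria arrays lay below the early agria arrays. In Las Bocas late pupae the organ pipe array had 9.74 and the agria arrays 13.34 and 13.92, the opposite order. The early mean of Las Bocas was 13.06, below both late agria arrays, so the stage change of -1.37 rested on the single organ pipe array. FBtr0170903 came next, with 10.85, 10.56, 11.48 and 10.45 on organ pipe and 10.00, 9.49, 9.18 and 9.97 on agria (difference 1.17, SE 0.35, limma adjusted p = 0.0865). Those on the negative side were small, with -0.22 (SE 0.36) for FBtr0175194 and -0.27 (SE 0.48) for FBtr0172446.

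The diet effect was set against that in early Punta Prieta pupae in 1 fit of 15 arrays. limma called 920 of 14528 transcripts (6.33%) whose diet difference was not the same in late as in early pupae, 301 with a more positive and 619 with a more negative difference in late pupae. Their adjusted p lay between 0.0429 and the threshold of 0.05. Such a contrast holds the early diet difference as well as the late one. In early pupae alone limma called 1 transcript by diet, and 1735 (11.9%) had an unadjusted p under 0.05. The count was 0 without agria replicate 2, agria replicate 3, organ pipe replicate 3 or organ pipe replicate 4, and 40 without organ pipe replicate 1. It was 1767 without agria replicate 1, 5039 without agria replicate 4 and 2308 without organ pipe replicate 2. Without both agria replicates 2 and 3 it was 0, with 2205 at an unadjusted p under 0.05. After a repeated quantile normalization 393 were called, and with the spread of all 172 arrays 6600.

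FBtr0174752 had the most negative called difference between stages, -4.19 (SE 0.83, limma adjusted p = 0.0429). Late pupae had 10.77, 10.97, 10.15 and 10.80 on organ pipe and 11.61, 14.81, 12.90 and 11.25 on agria. Early pupae had 14.71, 14.80, 13.93 and 15.19 on organ pipe and 12.56, 12.76 and 11.99 on agria. Agria replicate 2 of the late pupae thus stood at the level of early organ pipe pupae and above all early agria arrays. FBtr0165705 followed at -3.93 (SE 1.06, limma adjusted p = 0.0449), and there too late agria replicate 2, at 13.64, lay in the early organ pipe range and above the early agria range of 10.08 to 10.33.

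On the positive side were FBtr0165497, at 4.31 (SE 1.00, limma adjusted p = 0.0429), and FBtr0174719, at 3.68 (SE 1.04, limma adjusted p = 0.0484). FBtr0174719 had 11.76, 10.91, 12.55 and 11.58 in late pupae on organ pipe and 8.05, 10.83, 8.67 and 11.88 in late pupae on agria, and the groups overlapped. In early pupae it had 9.67, 11.97, 11.34 and 9.76 on organ pipe and 12.89, 12.11 and 12.57 on agria. Early and late diet differences were 2.22 and -1.97 for FBtr0174752, and 2.61 and -1.32 for FBtr0165705. They were -0.90 and 3.42 for FBtr0165497, and -1.84 and 1.84 for FBtr0174719.

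Las Bocas late pupae allowed only a coarse comparison, with 1 organ pipe and 2 agria arrays whose spread was pooled with that of Punta Prieta. No transcript had a diet difference that passed as unequal between populations in limma (0%), the lowest adjusted p was 0.83, and 458 had an unadjusted p under 0.05. By limma t the most positive was FBtr0165497, with a difference between populations of 7.30 (SE 1.47), followed by FBtr0163042 at 4.86 (SE 1.07). FBtr0163042 had 12.22, 13.76, 14.75 and 14.26 in Punta Prieta on organ pipe and 11.37, 12.49, 11.29 and 11.81 on agria, against 11.00 on organ pipe and 13.24 and 14.47 on agria in Las Bocas. The most negative by t were FBtr0168730, at -2.59 (SE 0.76), and FBtr0173286, at -2.36 (SE 0.73). FBtr0168730 had 10.32, 11.01, 9.78 and 10.38 in Punta Prieta on organ pipe and 12.12, 12.91, 13.20 and 11.93 on agria, without overlap, while in Las Bocas it had 11.46 on organ pipe and 11.19 and 10.88 on agria. With the spread of all 172 arrays 1199 were called.

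The overall signal and the spread of signals within single arrays overlapped between the diets. Array medians ran from 11.10 to 11.26 log2 units on organ pipe and 11.15 to 11.29 on agria (exact permutation p = 0.171). The spread of signals within an array, as SD, ran from 1.41 to 1.67 on organ pipe and 1.28 to 1.60 on agria (exact permutation p = 0.171). It averaged 1.56 on organ pipe and 1.41 on agria, and with so few arrays such a test can miss a difference. With array SD as a covariate 0 transcripts passed in limma, and 4156 had an unadjusted p under 0.05.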

How the data were processed

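RNA of Drosophila mojavensis was measured on single-colour (Cy3) NimbleGen arrays. The authors deposited log2 signals, and the submitters' processing notes name RMA, with no version. Signals lay between 7.25 and 15.93. No scanner files or background values were used, and slides are not known here, so no slide block was fitted and the number of arrays limits the precision. Groups came from the titles. limma 3.58.1 in R 4.3.3 (lmFit, eBayes) was fitted to the log2 values as deposited, organ pipe minus agria, with Benjamini-Hochberg adjustment over 14528 transcripts. The spread came from the arrays compared, and wider sets of arrays were alternatives. Scores are least-squares positions between Las Bocas means, diets weighing equally. Exact permutation tests were two-sided.

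The annotation table matched 0 transcript IDs, so planned gene lists were not run. By rule, the 2 transcripts with the largest difference in each direction among those called are named in each comparison, or the 2 with the largest limma t where none was called. Members, lists and tests were chosen with earlier results of these data known. The second late pupal score, the permutation of progress over both pupal stages and 1 leave-out setting were added after the data were examined. The steps were tested on simulated data. Alternatives covered the spread, scaling, dim transcripts, array weights, array SD, the variance prior, replicate numbers and left-out arrays.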

Additional observations from a re-analysis of the deposited data

Results flagged for a closer look

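The diet difference in pupal progress was larger by 0.664 in late than in early Punta Prieta pupae (exact permutation of diet labels within stage, p = 0.0118). That p is set against no diet effect at either stage and does not test whether the stages differ. The following transcripts were flagged because their diet difference was not the same at the 2 stages in limma: FBtr0165497 (4.31), FBtr0174719 (3.68), FBtr0174752 (-4.19) and FBtr0165705 (-3.93), all in log2 units. Of 62 groups checked for an array far from the others, over scores, stage lists and named transcripts, 0 were flagged. Such a check looks for 1 array apart from its group. It does not show that the late agria arrays are alike, since replicates 1 and 4 scored 0.723 and 0.743 on progress and replicates 2 and 3 scored 0.108 and 0.0731.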

How the results depend on the processing

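The number of transcripts called by diet was 0 as reported. It was 7725 with the spread of all 172 arrays, 4183 with that of the 25 pupal arrays, 7473 with array weights and 4840 without agria replicates 1 and 4. Array weights gave agria replicate 2 a weight of 3.18 and agria replicates 1 and 4 weights of 0.351 and 0.274. Without agria replicates 1 and 4 the agria group held only replicates 2 and 3, with progress scores of 0.108 and 0.0731. In all 4 of these settings the diets still differed in progress, so diet and progress cannot be told apart in the counts. Leaving out 1 array gave 0 to 4366. Replicate numbers do not pair the samples: the deviations of equally numbered arrays correlated at -0.661, -0.00662, -0.392 and 0.0582. With the replicate block 0 were called, with 3049 at an unadjusted p under 0.05. The progress difference, 0.646 as reported, ran from 0.511 to 0.652 under 6 other axes and scalings, each with an unadjusted exact permutation p of 0.0286. That p is the smallest that 4 against 4 arrays can give, and these settings use the same arrays. The Benjamini-Hochberg value of the reported difference over the 4 scores was 0.114. The progress difference had p = 0.125 by exact sign flips over numbered pairs (replicate block), the smallest that 4 pairs allow, and was 0.324 without the 2 agria arrays of lowest score. Leaving out 1 array gave 0.533 to 0.756, with exact permutation p up to 0.0857, reached without any 1 organ pipe array. The progress difference between late and early pupae was 0.474 on an axis with a minimum stage change of 2 log2 units (exact permutation p = 0.0543), and 0.551 to 0.774 with 1 array left out. Late minus early counts were 6600 with the spread of all 172 arrays, 393 after a repeated quantile normalization, 0 without the 2 agria arrays of lowest score and 0 to 5039 with 1 array left out. Punta Prieta minus Las Bocas gave 1199 with the spread of all 172 arrays and 0 with each late Punta Prieta array left out. The fit with the progress covariate gave 0 under every alternative run, including the second score as a further covariate. Signs turned for FBtr0172446 with array weights (0.18), without organ pipe replicate 3 (0.014) and without agria replicates 1 and 4 (0.37), and for FBtr0175194 without agria replicate 2 (0.0029). With 1 array left out FBtr0172446 ran from -0.56 to 0.014 and FBtr0175194 from -0.41 to 0.0029. Of 390 alternative values of named transcripts over 24 results, 308 kept sign and side of the threshold, 25 kept the sign and lost the call, 53 kept the sign and gained it, and 4 turned sign.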

Other observations

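The late agria arrays that lay near early pupae were set beside the early pupae of their own population. Agria replicate 2 correlated with the organ pipe early mean at 0.958 and with the agria early mean at 0.918. For agria replicate 3 these values were 0.870 and 0.775. With the organ pipe late mean, agria replicate 4 correlated at 0.912 and agria replicate 1 at 0.715, and for agria replicate 1 this was close to the 0.704 with the organ pipe early mean. On the score from third-instar larvae (0) to early pupae (1) in Las Bocas, agria replicates 2 and 3 scored 0.821 and 0.375. Early Punta Prieta pupae averaged 0.915 ± 0.12 on organ pipe (SD, n = 4) and 1.10 ± 0.058 on agria (SD, n = 3). The part of age, sex, culture or labelling in these likenesses was not tested.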
